A study of Homo sapiens with 12 samples.

Results

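Untreated SCC25 cells that were rich in VIM transcripts were compared with untreated SCC25 cells in which no VIM transcript was counted. SCC25 is an established line of head and neck squamous cell carcinoma (HNSCC), a cancer of the stratified epithelium of mouth and throat. Among cells of the 2 SCC25 control samples with at least 15000 unique molecular identifiers (UMIs, each standing for 1 captured transcript), those with 10 or more VIM UMIs were taken as VIM-high and those with 0 as VIM-lacking. The selection gave 1480 VIM-high and 1007 VIM-lacking cells of 4691 SCC25 control cells over the minimum. All untreated SCC25 cells numbered 4894, and the whole series 23914 cells. VIM is therefore not a result of the comparison, and its values are a description. The other genes entered the choice only through the total of UMIs per cell, to which raw VIM UMIs are tied, as described below.

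The series holds 3 HNSCC lines, SCC1, SCC6 and SCC25, in 12 samples, measured by droplet single-cell RNA sequencing from the 3′ end. Every line was given cetuximab, an antibody against the epidermal growth factor receptor, at 100 nM each day, or PBS as the untreated control, over 5 days, with 2 replicates per group. All groups grew in DMEM and Ham's F12 medium with foetal bovine serum. Used here were the SCC25 PBS samples, the SCC25 cetuximab samples and, as the nearest population of another line, the SCC6 PBS samples. Each sample held between 57057402 and 112170073 UMIs. The labels do not say whether the replicates were separate cultures. All p-values measure how far the class difference within a sample varied between replicates, a spread that may be technical. SCC25 is a single line without stroma, so the classes below are groups of cells within 1 cultured cancer line. Whether they are states or separate clones of the line was not tested.

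VIM encodes vimentin, the intermediate filament protein of mesenchymal cells. Epithelial cells are held together by keratin filaments anchored at desmosomes, and they gain vimentin when they pass into epithelial-to-mesenchymal transition (EMT), in which adhesion genes fall and matrix and contractile genes rise. In squamous epithelium the other main route is upwards: basal cells leave the cell cycle, switch keratins and make the proteins of the suprabasal and cornified layers. EMT is also known for its link to resistance against antibodies to EGFR, which is why the study followed VIM in single cells.

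VIM levels spread widely within each untreated sample. In replicate 1, 832 of 2188 cells over the minimum were VIM-high (38.0%, 95% Clopper-Pearson interval 36.0 to 40.1%) and 254 were VIM-lacking (11.6%, 10.3 to 13.0%). In replicate 2, 648 of 2503 cells were VIM-high (25.9%, 24.2 to 27.7%) and 753 were VIM-lacking (30.1%, 28.3 to 31.9%). The samples thus differed in their make-up by more than counting error, and these intervals cover counting error only. Between the classes lay 1102 cells in each replicate. The VIM-high cells held 85.4% and 87.8% of all VIM UMIs of their samples, with a median of 21 and 23.5 VIM UMIs per cell and a maximum of 236 and 671. Scaled to the total of the class sum as counts per 1000000 UMIs (CPM), VIM stood at 725 and 628 CPM in VIM-high cells and at 120 and 71.0 CPM in the cells between.

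**Figure D1:**
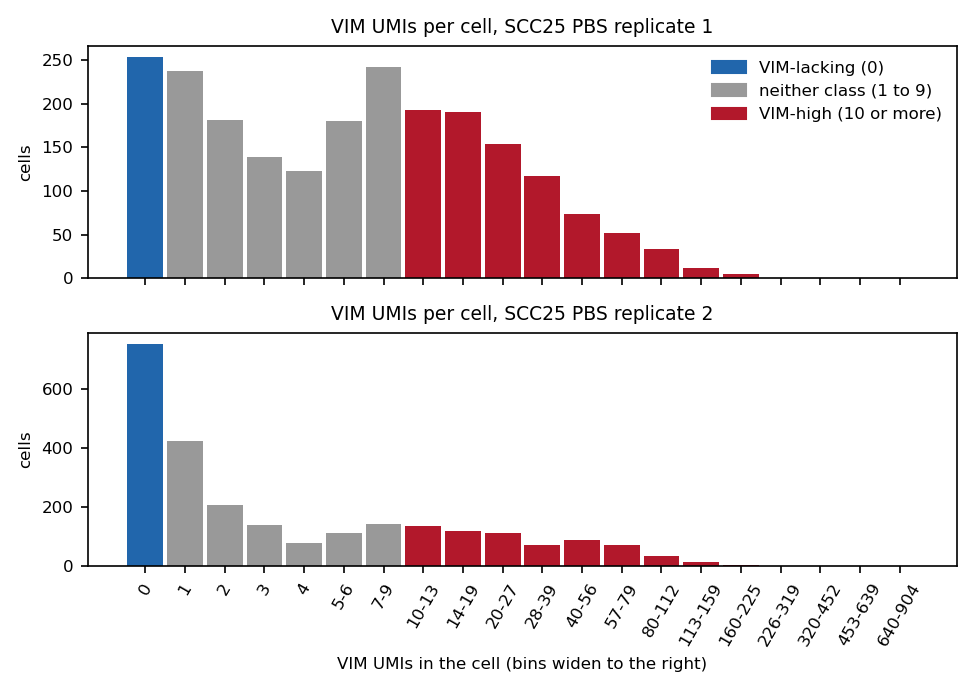
VIM UMIs per cell in the 2 untreated SCC25 samples, as the number of cells with at least 15000 UMIs (vertical axis) in each interval of raw VIM UMIs (horizontal axis, intervals widening to the right), coloured by class. The VIM-lacking cells at 0 UMIs were 11.6% of replicate 1 and 30.1% of replicate 2.

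The edges of the classes are set by the rule and not by a gap in the data. Just outside the VIM-high class, cells with 8 or 9 VIM UMIs numbered 158 in replicate 1 and 89 in replicate 2, at 232 and 178 CPM. Just inside, cells with 10 or 11 VIM UMIs numbered 107 and 74, at 293 and 209 CPM. Just outside the VIM-lacking class, cells with 1 VIM UMI numbered 237 and 424, at 31.7 and 26.0 CPM. At the depth minimum, 23 and 20 VIM-lacking cells lay within 2000 UMIs above it, and 22 and 23 cells without VIM lay within 2000 UMIs below it and were not taken. A count of 0 does not mean that a cell made no VIM. At the median depth of the class it allows up to 116 CPM in replicate 1 and 93.3 CPM in replicate 2 (3 UMIs).

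Both classes were squamous carcinoma cells by their keratins. KRT5, the basal keratin of stratified epithelium, was at 927 CPM in VIM-high and 1248 CPM in VIM-lacking cells of replicate 1, and at 1789 and 2449 CPM in replicate 2. KRT14, its partner, was at 2579 and 3213 CPM, and at 3703 and 5160 CPM. TP63, the regulator of squamous identity, lay between 28.4 and 76.4 CPM in the 4 class sums. Markers of other cell types were near 0 or not specific to them. Of the 8 leukocyte genes, CD3E and TYROBP were at 0 in all 4 sums, and almost all of the summed 158 to 203 CPM was CD68. The 6 endothelial genes summed to at most 0.906 CPM. The 9 fibroblast genes summed to 25.3 (VIM-high) and 28.3 CPM (VIM-lacking) in replicate 1 and to 31.0 and 49.6 CPM in replicate 2. LUM made up 6.79 and 16.8 CPM of this in replicate 1 and 17.0 and 37.0 CPM in replicate 2. Of 7 members tested, COL1A2, COL3A1 and THY1 were higher in VIM-high cells and LUM and DCN lower, and COL1A2 alone passed in depth-matched cells, where the median of 6 members was 0.51. COL1A2 was at 2.91 against 0.546 CPM and at 2.15 against 0.566 CPM, and THY1 at 2.49 against 0.683 CPM and at 1.73 against 0.528 CPM. The VIM-lacking values rest on few UMIs, 4 and 15 for COL1A2 and 5 and 14 for THY1, so the sizes of these differences are uncertain. The part of these markers in the results below was not tested. PDGFRB, a defining fibroblast receptor, was at 0 in 3 of the 4 sums. Genes marking the other lines, 5 for SCC1 and 1 for SCC6, summed to at most 1.84 CPM. The SCC1 genes stood at 746 CPM or more in their own line. All were picked partly for being near 0 in these same SCC25 samples. Their low sums thus follow from the choice, and cells of another line were not tested for. The 2 untreated samples shared 5 cell barcodes among 2318 and 2576 cells, so they are not the same library sequenced again.

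VIM-high cells were deeper than VIM-lacking cells, and the rule on raw VIM UMIs favours this. Their median was 38842 UMIs per cell against 25840 in replicate 1, and 55752 against 32150 in replicate 2. They had a median of 5642 against 4702 detected genes in replicate 1 and of 6381 against 5115 in replicate 2. With every cell thinned at random to 15000 UMIs, the medians of detected genes were 3517 and 3566 in replicate 1 and 3546 and 3528 in replicate 2. The share of UMIs from mitochondrial genes was lower in VIM-high cells, with medians of 2.93% against 3.76% and of 3.50% against 5.00%. No doublet caller was run.

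VIM and depth were tied beyond the selection as well. Counted in all untreated cells over the minimum, VIM rose from 225 CPM among cells with 15000 to 25000 UMIs to 446 CPM above 60000 UMIs in replicate 1. In replicate 2 it rose from 41.9 to 387 CPM. CPM is already scaled to depth, so deeper cells had more VIM per UMI. After thinning to 15000 UMIs, 20.7% of cells in replicate 1 and 45.5% in replicate 2 had no VIM UMI, and 35.7% and 19.7% had 5 or more. The thinned share without VIM still fell with the original depth, from 28.9% to 12.5% in replicate 1 and from 69.7% to 23.9% in replicate 2. Depth in droplet data follows cell size, RNA content and capture, which cannot be told apart here. For this reason most gene lists below are counted a second time in depth-matched cells, with values there for some of the genes named. These cells were equal numbers of both classes from each interval of 5000 total UMIs, 203 and 203 cells in replicate 1 and 313 and 313 in replicate 2, with class medians of 28294 and 28021 UMIs and of 45848 and 45659 UMIs.

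**Figure D2:**
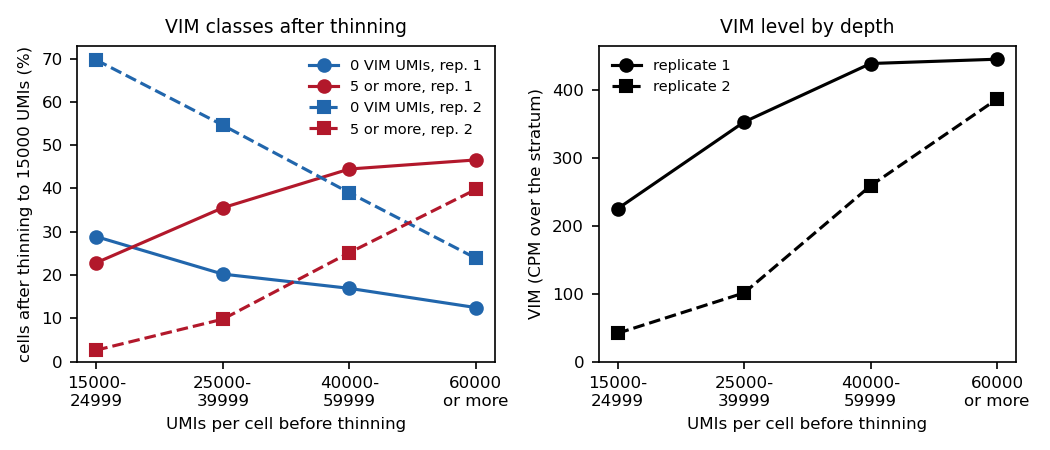
VIM by depth in the 2 untreated SCC25 samples, over 4 intervals of total UMIs per cell: on the left the percentage of cells with 0 or with 5 or more VIM UMIs after thinning to 15000 UMIs, and on the right the level of VIM in CPM over all cells of the interval, with 1 line per replicate. The share without VIM fell from 28.9% to 12.5% in replicate 1 and from 69.7% to 23.9% in replicate 2, while VIM rose from 225 to 446 CPM and from 41.9 to 387 CPM.

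The question put to the data was which genes move with VIM inside an untreated population. Raw UMIs were summed per sample and class, VIM was taken out, and the sums were fitted with the quasi-likelihood test of edgeR. The fit had a term for the sample, because both classes of a sample come from the same library. Of 15340 genes tested, 3669 passed an FDR of 0.05 (23.9%). Of these, 1805 were higher in VIM-high cells (11.8%) and 1864 were lower (12.2%), and the median log2 fold change of all genes was -0.02. In depth-matched cells, 407 of 12682 genes were higher (3.21%) and 562 lower (4.43%). Of these calls, 883 were also called with the same sign among all cells, and 8 with the opposite sign. The matched sums held fewer cells, drawn from the same libraries, and are not independent evidence. Without replicate 2 of the PBS group, 1080 genes passed, and without the sample term no gene passed in edgeR (1015 at an unadjusted p under 0.05). The calls thus rest on comparing the classes within each sample.

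The cetuximab samples had not entered the rule, and the same thresholds gave 1028 and 998 VIM-high and 178 and 249 VIM-lacking cells there. Between these classes 4014 of 15340 genes passed (26.2%), 2254 higher (14.7%) and 1760 lower (11.5%). Without replicate 2 of the cetuximab group the number was 2070. Treated and untreated groups share no sample, but their sums were fitted together with a shared estimate of the spread. Of the genes called in untreated cells, 2439 were called with the same sign in treated cells, which is 66.5% of the former and 60.8% of the latter, and 5 with the opposite sign. With each group fitted alone, 2776 genes were called in both groups with the same sign and 5 with the opposite sign. In depth-matched treated cells, 436 genes were higher (3.44%) and 448 lower (3.53%).

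Genes named first are those with the largest differences among genes of 50 CPM or more that passed and kept their direction in both samples and in depth-matched cells. The 12 largest were taken on each side out of 522 eligible genes that were higher and 283 that were lower. Since these were picked for their difference in the untreated samples, the values there describe the choice. The rule fixed their direction in depth-matched cells but did not ask them to pass there. All 24 did pass there with the same sign, in cells drawn from the same libraries. The differences in the cetuximab samples did not choose these genes, but the sums of those samples shared the fit and its estimate of the spread. Under cetuximab 23 of 24 passed with the same sign. The exception was SERPINE2, an inhibitor of secreted proteases (log2 fold change 0.38, edgeR FDR 0.0799 in treated cells, 1.03 in untreated cells). Of all genes tested 26.2% passed there in either direction, but that share was not limited to 50 CPM or more and is not a like set. Treated VIM-high cells were also deeper, with medians of 49252 against 31284 UMIs in replicate 1 and of 59475 against 32890 UMIs in replicate 2.

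The 12 genes that were higher in VIM-high cells included actin-binding, matrix and signalling genes. TAGLN, transgelin, an actin-binding protein of smooth muscle and an EMT marker, was at 176 CPM in VIM-high against 59.0 CPM in VIM-lacking cells of replicate 1, and at 151 against 42.5 CPM in replicate 2. Both VIM-high sums lay above both VIM-lacking sums. The log2 fold change was 1.74 ± 0.08 (SE, n = 2 samples per class, edgeR FDR 3.83e-08), 1.57 in depth-matched cells and 1.84 under cetuximab. FST, follistatin, a secreted antagonist of activins, was at 222 against 62.6 CPM and at 112 against 22.3 CPM. Again the groups did not overlap, with a log2 fold change of 2.12 ± 0.22 (edgeR FDR 2.49e-05), 1.75 in depth-matched cells and 2.03 under cetuximab. AXL, a receptor tyrosine kinase often raised in cells resistant to EGFR inhibition, was at 121 against 44.3 CPM and at 62.7 against 20.6 CPM. Its log2 fold change was 1.56 ± 0.13 (edgeR FDR 3.62e-06), 1.55 in depth-matched cells and 1.39 under cetuximab. Depth matching thus left the AXL difference close to its value in all cells.

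TGFBI, a matrix protein induced by TGF-beta, was at 238 against 122 CPM and at 414 against 197 CPM (log2 fold change 1.05 ± 0.08). Replicate 2 was higher in both classes, and the classes still did not overlap. CALD1, caldesmon, which regulates actin and myosin, was at 343 against 184 CPM and at 205 against 93.7 CPM (1.05 ± 0.08). The remaining genes of this side were KRT81, a hair keratin (1.51 ± 0.26), EMP3, a small membrane protein (1.32 ± 0.09), C12orf75 (1.26 ± 0.15), ANXA3, a calcium-dependent membrane-binding annexin (1.20 ± 0.09), AMIGO2, a cell adhesion protein (1.09 ± 0.09), SERPINE2 (1.03 ± 0.15) and TUBA1B, an alpha-tubulin (1.00 ± 0.07). Of these, KRT81 did not pass with DESeq2 (adjusted p 0.0736). TUBA1B was at 2019 against 1077 CPM and at 2554 against 1256 CPM. In depth-matched cells its difference was 0.50, which makes it, with KRT81 at 0.92, the member of this side that shrank most.

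The 12 genes that were higher in VIM-lacking cells included a surface protein, a keratin, enzymes and secreted proteins. LY6D, a surface protein of differentiating squamous cells, was at 332 CPM in VIM-high against 2350 CPM in VIM-lacking cells of replicate 1, and at 718 against 3420 CPM in replicate 2. Its log2 fold change was -2.50 ± 0.10 (edgeR FDR 1.31e-08), -2.29 in depth-matched cells and -2.94 under cetuximab. The classes did not overlap, as every VIM-lacking sum lay above every VIM-high sum. KRT13, the keratin of the suprabasal layers of oral mucosa, was at 57.1 against 230 CPM and at 243 against 1103 CPM. Replicate 2 was higher than replicate 1 in both classes, so that VIM-high cells of replicate 2 reached the VIM-lacking cells of replicate 1, and only cells of the same sample differed clearly (-2.07 ± 0.13, edgeR FDR 2.51e-07). LCN2, lipocalin, a secreted iron-siderophore-binding defence protein, was at 34.7 against 234 CPM and at 86.6 against 384 CPM (-2.41 ± 0.13, edgeR FDR 5.10e-08). SLPI, a secreted inhibitor of leukocyte proteases, was at 16.7 against 86.5 CPM and at 35.0 against 157 CPM (-2.23 ± 0.11, edgeR FDR 3.71e-08). For LCN2 and SLPI no VIM-high sum reached a VIM-lacking sum.

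ALDH3A1, an aldehyde dehydrogenase of surface epithelia, had the largest difference among the 24, at 5.63 against 49.2 CPM and at 39.8 against 227 CPM (-2.71 ± 0.13, edgeR FDR 3.83e-08). Replicate 2 was higher in both classes, and the classes did not overlap. MMP1, the interstitial collagenase, was at 20.4 against 77.1 CPM and at 87.5 against 373 CPM (-1.99 ± 0.10). Although MMP1 is a matrix protease, it was higher in VIM-lacking cells, and in depth-matched cells the difference was -0.92. The other genes of this side were FBP1, of gluconeogenesis (-2.24 ± 0.10), ELF3, an epithelial ETS transcription factor (-1.90 ± 0.17), TNFAIP2, a gene induced by tumour necrosis factor (-1.86 ± 0.12), ADIRF (-1.61 ± 0.08), AQP3, a water and glycerol channel (-1.55 ± 0.11), and CLDN1, a tight junction protein (-1.54 ± 0.08). All of these passed in depth-matched cells, with log2 fold changes between -1.98 and -1.13.

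**Figure D3:**
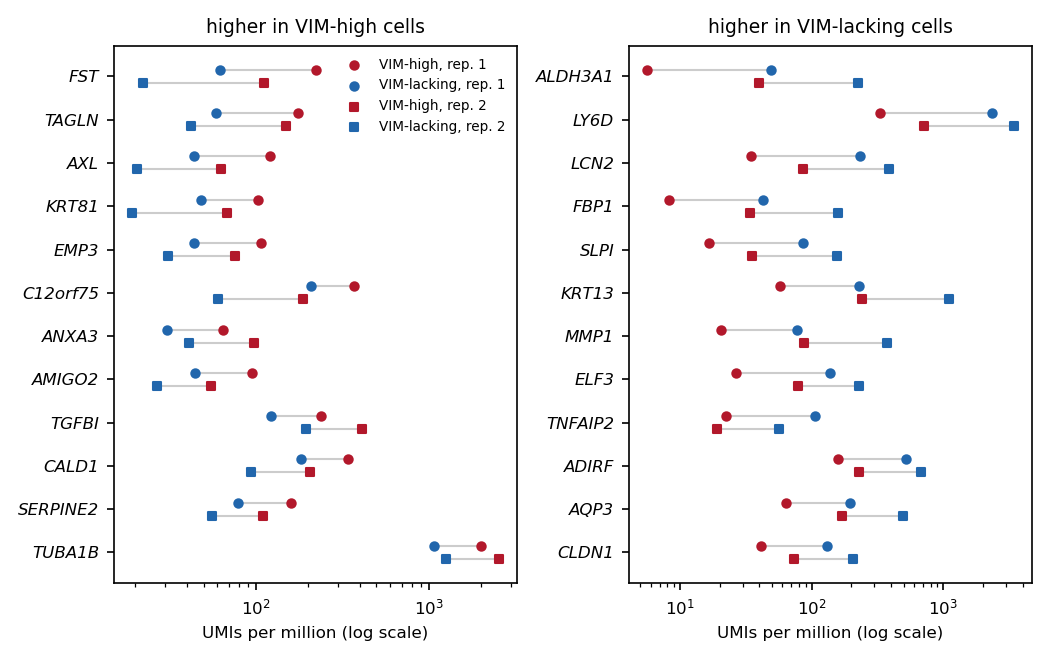
Levels of the 24 named genes in the class sums of the untreated SCC25 samples, in CPM on a log axis, with VIM-high and VIM-lacking sums of each replicate as separate points. The genes were chosen for this difference, with log2 fold changes from 2.12 (FST) to -2.71 (ALDH3A1).

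Promoter sequences show where these genes start and what common motifs lie there. Among the named genes, 10 of 12 on the VIM-high side and 7 of 12 on the VIM-lacking side had an entry in the RefSeq promoter table (GRCh38.p14), while TAGLN, KRT13, SLPI and ALDH3A1 had none. Printed are the 250 bases before the start of VIM, which defines the classes, of AXL and FST from the VIM-high side and of LCN2 from the VIM-lacking side. All are on the plus strand, at chr10:17227991-17228240, chr19:41218973-41219222, chr5:53480379-53480628 and chr9:128149203-128149452. Capitals mark matches on either strand to AP-1 (TGANTCA), AP-2 (GCCNNNGGC), TEAD (GGAATG) or the E-box bound by SNAI and ZEB factors (CAGGTG).
VIM: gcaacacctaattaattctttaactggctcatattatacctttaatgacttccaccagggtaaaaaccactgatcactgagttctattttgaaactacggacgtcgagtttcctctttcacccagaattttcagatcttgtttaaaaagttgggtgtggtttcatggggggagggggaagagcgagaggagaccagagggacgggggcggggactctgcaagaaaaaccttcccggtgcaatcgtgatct
AXL: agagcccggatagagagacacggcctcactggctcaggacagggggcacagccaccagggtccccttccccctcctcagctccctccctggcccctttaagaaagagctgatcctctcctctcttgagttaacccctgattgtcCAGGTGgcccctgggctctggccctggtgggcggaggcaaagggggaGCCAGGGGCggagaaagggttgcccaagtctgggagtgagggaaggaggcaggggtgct
FST: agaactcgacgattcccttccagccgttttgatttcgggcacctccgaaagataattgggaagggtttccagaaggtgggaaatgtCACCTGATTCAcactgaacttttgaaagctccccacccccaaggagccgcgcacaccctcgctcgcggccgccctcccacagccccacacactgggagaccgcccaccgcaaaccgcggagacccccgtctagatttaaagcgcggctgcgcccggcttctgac
LCN2: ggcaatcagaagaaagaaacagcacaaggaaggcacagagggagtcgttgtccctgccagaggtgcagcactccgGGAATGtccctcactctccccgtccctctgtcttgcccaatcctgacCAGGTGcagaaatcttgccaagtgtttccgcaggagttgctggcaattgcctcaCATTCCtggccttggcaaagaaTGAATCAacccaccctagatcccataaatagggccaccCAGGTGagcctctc
The VIM window held none of these letters. AXL held an AP-2 and an E-box match, FST an AP-1 and an E-box match that overlap, and LCN2 an AP-1 match with TEAD and E-box matches. The share of all 27305 promoters with a match was 6.60% for AP-1, 19.7% for AP-2, 11.9% for TEAD and 17.5% for the E-box. On the VIM-high side 2, 3, 1 and 4 of 10 promoters had a match to these in the same order, and on the VIM-lacking side 1, 0, 1 and 2 of 7. A match is a description of letters and not a bound site.

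Most of the genes followed in bins of VIM moved in steps and not only between the ends. All cells over the minimum were thinned to 15000 UMIs and grouped by raw VIM UMIs (0, 1 to 3, 4 to 9, 10 to 19, 20 to 39, 40 or more), with 178 to 557 cells a bin in replicate 1 and 183 to 769 in replicate 2. TAGLN rose from 53.8 CPM in the lowest bin to 307 CPM in the highest in replicate 1, and from 44.0 to 228 CPM in replicate 2. TGFBI went from 118 to 388 CPM and from 184 to 546 CPM. LY6D went down from 2450 to 185 CPM and from 3476 to 361 CPM, KRT13 from 264 to 36.3 CPM and from 1156 to 110 CPM, and LCN2 from 256 to 23.2 CPM and from 418 to 58.8 CPM. FST was highest at 20 to 39 VIM UMIs in replicate 1 (241 CPM) and lower in the top bin (190 CPM). TFAP2A stayed between 57.5 and 64.8 CPM in replicate 1 and between 46.3 and 54.3 CPM in replicate 2. The bins follow raw VIM and so also follow depth, and their values are a description.

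**Figure D4:**
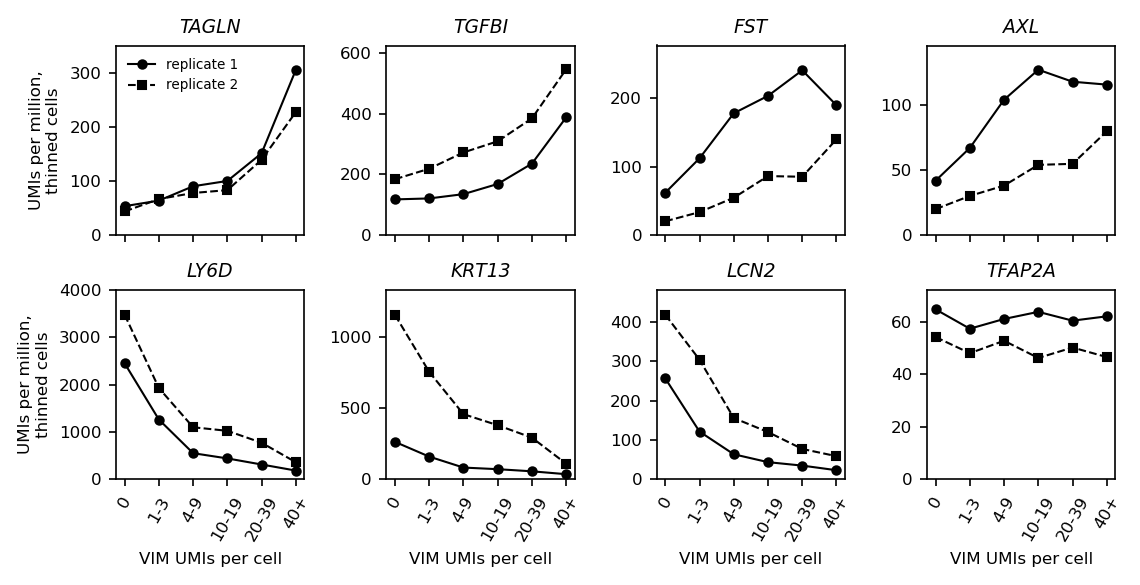
Levels of 8 genes in untreated SCC25 cells grouped by raw VIM UMIs (horizontal axis), in CPM after thinning each cell to 15000 UMIs, on linear axes from 0 that differ between genes, with 1 line per replicate. LY6D, KRT13 and LCN2 were lowest and TAGLN and TGFBI highest in the top bin in both replicates.

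Within single cells the classes overlapped for LY6D, KRT13 and TAGLN. After thinning, 77.5% of VIM-high and 95.7% of VIM-lacking cells of replicate 1 had an LY6D UMI, and 90.9% and 98.9% in replicate 2. For KRT13 the shares were 32.7% and 65.0%, and 69.8% and 93.2%. For TAGLN they were 54.2% and 33.5%, and 50.8% and 26.3%. None of these genes split the cells into carriers and non-carriers. In no thinned cell of these classes was there a UMI of PTPRC, CD3E, ALB or HBB, genes that squamous cells should lack. A count of 0 over 2487 cells allows a share of cells with such a UMI of up to 0.121%, and it does not limit the share of cells that express these genes. Before thinning, PTPRC had 2 UMIs in 1 of the 4 sums and HBB at most 3 in any.

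The counts of the lists below stand against the shares of all genes tested in untreated cells, 11.8% higher and 12.2% lower. In depth-matched cells these shares were 3.21% and 4.43%, and under cetuximab, in all cells, 14.7% and 11.5%. Mesenchymal matrix and adhesion genes were mostly higher in VIM-high cells. Of 30 listed genes other than VIM, 27 were tested, 16 were higher and 4 lower (edgeR FDR under 0.05), and the median log2 fold change was 0.59. In depth-matched cells 12 of 26 were higher and 2 lower, median 0.56, and under cetuximab 17 were higher and 4 lower, median 0.64. FN1, fibronectin, was at 72.2 against 13.7 CPM in replicate 1 and at 18.6 against 3.89 CPM in replicate 2 (2.36 ± 0.12, edgeR FDR 5.10e-08). TNC, tenascin, a matrix protein of wounds, was at 73.9 against 29.2 CPM and at 31.1 against 8.27 CPM (1.66 ± 0.18). CDH2, N-cadherin, the adhesion protein gained in EMT, was at 76.7 against 40.7 CPM and at 40.9 against 14.9 CPM (1.22 ± 0.18, edgeR FDR 0.000334). For all of FN1, TNC and CDH2 replicate 1 was higher in both classes. The 4 genes that were lower were BGN, DCN and LUM, small leucine-rich proteoglycans of the matrix, and S100A4, a calcium-binding protein. LUM was at 6.79 against 16.8 CPM and at 17.0 against 37.0 CPM (-1.16 ± 0.11), and at -0.42 it did not pass in depth-matched cells (edgeR FDR 0.118).

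Contractile genes moved with VIM. Of 13 tested, 9 were higher and none was lower, median 0.56. In depth-matched cells 6 were higher and 1 lower, median 0.42, and under cetuximab 12 were higher and none lower, median 1.03. ACTG2, smooth muscle gamma-actin, was at 14.2 against 3.83 CPM and at 20.8 against 4.04 CPM (2.26 ± 0.14), ACTN1, an actin crosslinker, at 200 against 128 CPM and at 252 against 139 CPM (0.79 ± 0.10), and TPM2, a tropomyosin, at 347 against 225 CPM and at 362 against 238 CPM (0.65 ± 0.07). Targets of YAP and TEAD, which answer to cell spreading and tension, also included genes that were higher. Of 15 tested, 5 were higher and none was lower in all cells, and 5 and none in depth-matched cells (AXL, F3, CYR61, FJX1 and ANKRD1 in all cells). F3, tissue factor, was the most abundant, at 979 against 560 CPM and at 779 against 403 CPM (0.91 ± 0.07, edgeR FDR 2.24e-06, 0.81 in depth-matched cells).

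Of 8 transcription factors known to drive EMT, TWIST2 and TCF4 were higher (11.8% of all genes were) and none was lower. None of the 8 passed with DESeq2, 1 passed without replicate 2 of the PBS group, and none of 5 passed in depth-matched cells, where 3.21% of all genes were called higher. TWIST2 was at 25.5 against 20.4 CPM and at 18.2 against 13.1 CPM (0.44 ± 0.10), and at 0.31 in depth-matched cells (edgeR FDR 0.201). SNAI2, the most expressed of those always named, was at 65.7 against 47.5 CPM in replicate 1 and at 62.5 against 66.7 CPM in replicate 2 (0.19 ± 0.12, edgeR FDR 0.285), so that the samples pointed in opposite directions. ZEB1 was at most at 0.537 CPM in any sum (1.93 ± 0.75, edgeR FDR 0.0782), too low for a firm value. In the TGF-beta list of 19 genes, 2 were higher and 4 lower, against 11.8% and 12.2% of all genes, and in depth-matched cells 2 and 2 of 17. TGFB2, a ligand, was at 20.4 against 11.3 CPM and at 15.4 against 7.66 CPM (0.97 ± 0.15). INHBA, an activin subunit, had a log2 fold change of 0.83 ± 0.14. ID1, a target of BMP signalling, was lower, at 817 against 1372 CPM and at 1088 against 1958 CPM (-0.77 ± 0.07).

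Junction genes were lower in untreated VIM-high cells for the greater part of both lists. Of 22 epithelial junction genes, 14 were lower and 1, EPCAM, was higher (median -0.37). In depth-matched cells 6 were lower and none higher (median -0.26). Of 11 desmosome genes, 8 were lower and none higher (median -0.63), and 5 in depth-matched cells. Under cetuximab, in all cells, 8 of 22 epithelial junction genes were lower and 1 higher, with a median of only -0.10. Of the desmosome genes 7 of 11 were lower there and none higher (median -0.53). In depth-matched treated cells 4 epithelial junction and 3 desmosome genes were lower. CLDN7, a claudin, was at 58.7 against 104 CPM and at 115 against 165 CPM (-0.64 ± 0.09). DSG3, the desmoglein of the lower layers, was at 24.5 against 38.4 CPM and at 19.5 against 40.7 CPM (-0.84 ± 0.11). CDH1, E-cadherin, was at 28.7 against 34.8 CPM and at 22.9 against 32.8 CPM (-0.38 ± 0.11, edgeR FDR 0.0251), and in depth-matched cells it was at -0.18 (edgeR FDR 0.505). CDH1 also did not pass with DESeq2 or without replicate 2 of the PBS group. Without that replicate, 6 junction and 4 desmosome genes were lower.

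Keratins moved in both directions. Of 13 simple and stress keratins, 5 were higher (KRT81, KRT80, KRT7, KRT18 and KRT8) and 8 lower (KRT4, KRT13, KRT16, KRT6A, KRT6B, KRT6C, KRT17 and KRT19). In depth-matched cells 3 of 12 were higher and 6 lower, and without replicate 1 of the PBS group 3 of 13 were higher. KRT4, the mucosal partner of KRT13, was at 0.0566 against 5.87 CPM and at 2.47 against 71.6 CPM. The VIM-high value of replicate 1 lay below the 0.0848 CPM that a count of 0 allows in that sum. The size of the KRT4 difference in replicate 1 is thus uncertain. KRT16, a wound keratin, was at 47.3 against 93.9 CPM and at 61.8 against 212 CPM (-1.38 ± 0.15). Of 13 genes of the basal list, 2 were higher and 6 lower, and their median went from -0.23 to 0.10 in depth-matched cells, where 2 were higher and 3 lower. Without replicate 2 of the PBS group, 5 of the first list and 1 of the second were lower. KRT15, a keratin of basal progenitors, was at 59.4 against 175 CPM and at 125 against 309 CPM (-1.40 ± 0.10). KRT5 (-0.41) and KRT14 (-0.37), whose levels are given above, were lower as well, so that basal and suprabasal keratins alike were among the genes that were lower. Near-identical copies such as KRT6A, KRT6B and KRT6C may share reads.

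The squamous differentiation list had the largest median difference of all lists. Of its 36 genes, 27 were tested, 22 were lower in VIM-high cells and 1, DMKN, was higher, and the median log2 fold change was -1.63. In depth-matched cells 16 of 24 were lower and 1 higher, median -1.16, and under cetuximab 21 of 27 were lower and 2 higher, median -2.01. Summed over the list, VIM-high cells had 1715 CPM against 4158 CPM in replicate 1 and 2193 CPM against 5594 CPM in replicate 2, of which LY6D made up the greater part in VIM-lacking cells. SERPINB3, a squamous cell serpin with a near-identical neighbour, was at 1.27 against 14.3 CPM and at 3.10 against 23.2 CPM (-3.08 ± 0.16, edgeR FDR 5.10e-08). S100A9, a calprotectin subunit of activated keratinocytes, was at 7.38 against 67.6 CPM and at 9.29 against 39.6 CPM (-2.58 ± 0.26). LOR, CRNN, TGM3 and SPRR3, of the cornified layers, had no UMI in any of the 4 sums, which allows up to 0.0788 CPM in the deepest and 0.410 CPM in the shallowest sum.

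**Figure D5:**
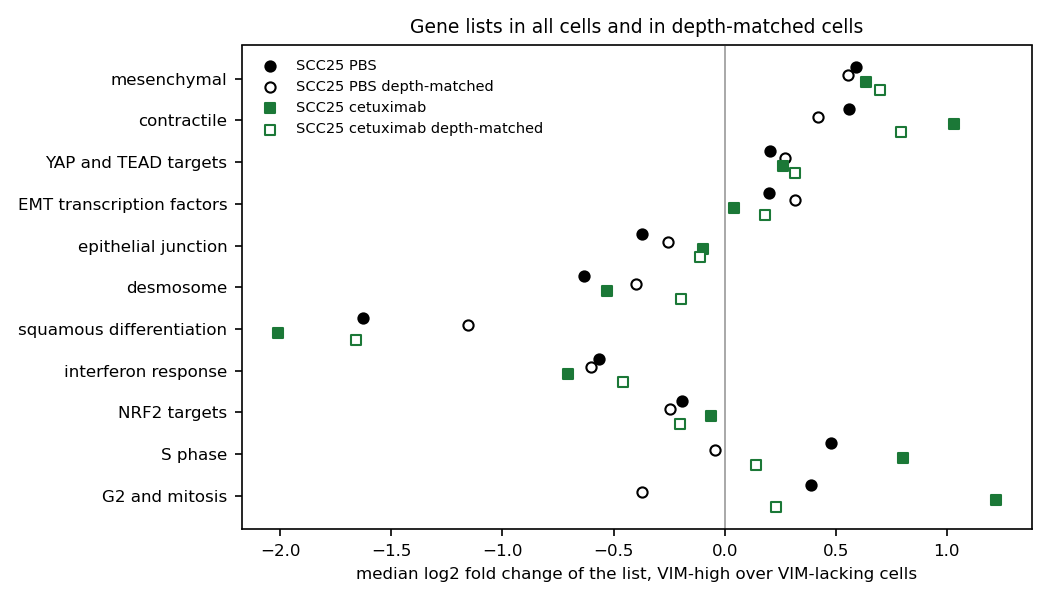
Median log2 fold change (VIM-high over VIM-lacking) of the tested members of 11 gene lists in SCC25 PBS (circles) and SCC25 cetuximab (squares), in all cells (filled) and in depth-matched cells (open). The median of the squamous differentiation list was -1.63 and -1.16 in untreated cells, and that of the G2 and mitosis list changed sign from 0.39 to -0.37.

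Most cell cycle genes were higher in untreated VIM-high cells, but not in depth-matched untreated cells. Of 28 S phase genes, 20 were higher and none lower in VIM-high cells (median 0.48), and in depth-matched cells none passed in either direction (median -0.04). Of 36 genes of G2 and mitosis, 24 were higher and none lower (median 0.39), whereas in depth-matched cells none was higher and 6 were lower (median -0.37). Summed, the G2 and mitosis list stood at 3800 against 3136 CPM and at 4453 against 3083 CPM. AURKB, a mitotic kinase, was at 98.3 against 65.9 CPM and at 123 against 73.5 CPM (0.70 ± 0.09), and at -0.25 in depth-matched cells (edgeR FDR 0.387). CDK1, the kinase that starts mitosis, was at 127 against 80.5 CPM and at 177 against 112 CPM (0.69 ± 0.08), and at -0.64 in depth-matched cells (edgeR FDR 0.142). Matched VIM-high cells were the shallower of their class, by the medians above, and matched VIM-lacking cells the deeper. Without replicate 2 of the PBS group 6 S phase and 8 mitosis genes passed.

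Interferon-stimulated genes were lower in VIM-high cells. Of 28 tested, 19 were lower and none higher (median -0.57). In depth-matched cells 22 were lower and none higher (median -0.60), and under cetuximab 26 and none (median -0.71). OASL, of the antiviral oligoadenylate synthetase family, was at 52.3 against 115 CPM and at 115 against 175 CPM (-0.82 ± 0.14). OAS1, which starts RNA decay on viral RNA, was at 29.7 against 43.4 CPM and at 43.3 against 87.7 CPM (-0.78 ± 0.16). The summed list was at 4434 against 5620 CPM and at 3770 against 6128 CPM. The calls leaned on replicate 2, since without it 2 of 28 passed, median -0.41, and without replicate 1 24 passed, median -0.73. HLA class I genes were lower for 4 of 12 (1 without replicate 2, and 2 in depth-matched cells), B2M among them, at 2123 against 2588 CPM and at 2322 against 3448 CPM (-0.40 ± 0.10). In depth-matched cells B2M was at -0.26 and did not pass (edgeR FDR 0.0600). Of 18 chemokines and cytokines, 3 were higher and 9 lower, against 11.8% and 12.2% of all genes. In depth-matched cells none of 17 was higher and 7 were lower. CXCL1, a neutrophil chemokine, was at 16.03 against 32.5 CPM and at 8.30 against 22.6 CPM (-1.21 ± 0.13).

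Among receptors and their pathway, EGFR and AXL went opposite ways. EGFR, the target of cetuximab, was at 75.9 against 110 CPM and at 76.6 against 122 CPM (-0.58 ± 0.09, edgeR FDR 0.000456). In depth-matched cells the log2 fold change was -0.36 (edgeR FDR 0.0241) and under cetuximab -0.52. Neither VIM-high sum reached a VIM-lacking sum. Of 14 receptor tyrosine kinases, AXL and MET were higher and 5 were lower, against 11.8% and 12.2% of all genes. The counts were 1 and 4 of 15 without replicate 1 of the PBS group, 3 and 3 of 14 without replicate 2, and 1 and 3 of 12 in depth-matched cells. DDR1, a collagen receptor, was at 30.5 against 47.5 CPM and at 51.6 against 79.3 CPM (-0.60 ± 0.09). Among EGFR ligands AREG, amphiregulin, was higher (0.54 ± 0.10) and HBEGF lower (-0.59 ± 0.11), and in depth-matched cells AREG was at 0.27 and did not pass (edgeR FDR 0.324). Of 22 genes that answer to MAPK signalling, 5 were higher and 6 lower, 3 and 2 without replicate 2 of the PBS group, and 4 and 1 in depth-matched cells. FOSL1, an AP-1 subunit, was at 79.1 against 49.9 CPM and at 51.0 against 18.8 CPM (1.097 ± 0.15), while FOS, another, was at 46.7 against 143 CPM and at 105 against 262 CPM (-1.43 ± 0.11). TFAP2A, a transcription factor of receptor genes followed in the study, was at 60.7 against 58.5 CPM and at 49.8 against 52.5 CPM (0.01 ± 0.09, edgeR FDR 0.932). A difference in TFAP2A was not detectable, and its sign changed when cells were thinned to equal depth (-0.11).

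Further lists held smaller or mixed differences. Some of their counts lay near the shares of all genes, 11.8% higher and 12.2% lower (3.21% and 4.43% in depth-matched cells), and many rest on few genes. Of 15 NRF2 target genes, 6 were lower and 1, SLC7A11, was higher, and 5 and 1 in depth-matched cells. AKR1C2, an aldo-keto reductase with near-identical relatives, was at 27.8 against 93.3 CPM and at 90.1 against 240 CPM (-1.53 ± 0.09). Of 19 hypoxia and glycolysis genes 2 were higher and 8 lower (median -0.15), and in depth-matched cells none of 18 was higher and 3 were lower. Under cetuximab this direction did not hold in all cells, with 7 of 19 higher and 2 lower (median 0.18). In depth-matched treated cells none of 18 was higher and 1 was lower. NDRG1, a stress and differentiation gene, was at 105 against 199 CPM and at 83.0 against 167 CPM (-0.93 ± 0.10). Of 16 plasminogen and metalloproteinase genes 3 were higher and 6 lower, and in depth-matched cells 1 and 2 of 14, with PLAT, the tissue plasminogen activator, at -1.57 ± 0.11 in all cells. Of 11 stem cell markers 4 were lower and none higher, and in depth-matched cells 4 were lower and 2 higher. SOX2, a stem cell transcription factor, was at 16.3 against 30.1 CPM and at 24.4 against 33.5 CPM (-0.61 ± 0.15). Of 14 integrated stress response genes 4 were higher, among them ASNS, asparagine synthetase (0.65 ± 0.11). In depth-matched cells 1 of 13 was higher, and ASNS, at 0.38, did not pass (edgeR FDR 0.0860). MT2A, a metallothionein, was at 2993 against 2091 CPM and at 1634 against 1029 CPM (0.62 ± 0.08). Of 12 genes of other intermediate filaments and their linkers 4 were higher and none lower, and in depth-matched cells 1 of 10 was higher. Lamin A (LMNA), of the nuclear lamina, was the most abundant of these named, at 374 against 297 CPM and at 852 against 744 CPM (0.29 ± 0.07). In depth-matched cells LMNA was at 0.25 and did not pass (edgeR FDR 0.0523). Of 83 ribosomal protein genes 21 were higher and none lower (median 0.12), and 20 of 82 in depth-matched cells. Of 13 mitochondrially encoded genes 6 were lower (median -0.17), and 3 in depth-matched cells. Without replicate 2 of the PBS group, 4 hypoxia and glycolysis, 3 plasminogen and metalloproteinase and 2 mitochondrially encoded genes were lower, and no hypoxia and glycolysis gene was higher. Neither the filament and linker nor the ribosomal list then had a gene that passed. Without replicate 1 instead, 4 ribosomal protein genes were higher and 5 hypoxia and glycolysis genes lower. Over the 23 chromosomes on which 13484 tested genes could be placed, the median log2 fold change of a chromosome lay between -0.08 and 0.06. The calls were less even, with 63 genes higher and 23 lower of 432 on chromosome X and 36 higher and 73 lower of 374 on chromosome 20, which were chosen after their values were seen.

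Whether the class difference itself changed under cetuximab was tested as the difference of both class effects. Of 15340 genes, 76 passed (0.495%), and in depth-matched cells 1, CXCL10 (chosen after its value was seen), passed. Leaving out any of the 4 SCC25 libraries gave between 128 and 256 genes, namely 170 and 150 when replicate 1 or 2 of the PBS group was absent, and 256 and 128 when replicate 1 or 2 of the cetuximab group was absent. The 5 genes with the smallest p among those of 50 CPM or more were HIST1H1A, a linker histone made in S phase, CCNB2, PTTG1, the securin of mitosis, NUSAP1 and CLDN1. CCNB2, a mitotic cyclin, was higher in VIM-high cells by 0.37 in untreated and by 1.53 in treated cells (difference 1.16 ± 0.13, edgeR FDR 0.00299). NUSAP1, a spindle protein, was at 0.07 and 1.05 (difference 0.97 ± 0.13, edgeR FDR 0.00909). All 36 genes of G2 and mitosis were higher in treated VIM-high cells, 8 of them in depth-matched cells, and the difference from untreated cells was not tested for the list. The class difference of CLDN1 went from -1.54 to -0.56 (0.98 ± 0.11, edgeR FDR 0.00299). That of EMP3 went from 1.32 to 0.47 (-0.85 ± 0.12, edgeR FDR 0.0110) and FN1 from 2.36 to 1.45 (-0.92 ± 0.17, edgeR FDR 0.0312).

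The class difference of SCC25 was compared last with that of untreated SCC6. The same thresholds gave 47 and 198 VIM-high and 1889 and 1167 VIM-lacking cells there. Of 15993 genes 1037 passed in SCC6 (6.48%), and the class difference differed between the lines for 1792 (11.2%). Without replicate 2 of SCC6 these were 341 and 936, and without replicate 2 of SCC25 PBS the second was 316. Calls in SCC6 depended on the scaling, with 35.0% of them higher with TMM factors and 65.6% higher with the size factors of DESeq2. Of the 24 named genes 15 passed in SCC6 with the sign of SCC25. TAGLN (1.49 ± 0.11), TGFBI (0.98 ± 0.08), CDH2 (1.77 ± 0.21) and FN1 (1.03 ± 0.10) were higher in VIM-high cells there too, and KRT13 was lower (-1.58 ± 0.21). The squamous list had 6 of 30 genes lower in SCC6 (median -0.17), and the interferon list none of 30 (median -0.10). Of all 15993 genes tested there, 674 were lower and 363 higher, with a median of -0.10. Whether these lists as a whole differed between the lines was not tested. LCN2 differed between the lines, at -2.41 in SCC25 and -0.34 in SCC6 (difference 2.05 ± 0.18, edgeR FDR 4.86e-06, 2.09 in depth-matched cells). KRT17, a stress keratin, was at -0.25 in SCC25 and 0.96 in SCC6 (difference 1.19 ± 0.14, edgeR FDR 6.26e-05). SCC1 held between 0 and 10 VIM-high cells per sample, too few for a comparison.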

How the data were processed

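The deposited tables hold raw UMI counts per gene and cell, whole numbers with no normalisation, in 1 table per line. To make these counts the authors used Cell Ranger for filtering and alignment, with Monocle for pre-processing. The submitters' processing notes name GRCh38. The version of Cell Ranger and the annotation are not given in the sources used here. Counts of symbols found on more than 1 of 33538 gene lines were added, which left 33514 symbols, and no value column was left unused. How reads shared by near-identical or overlapping genes were counted is not stated, so such genes are uncertain.

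Cells with at least 15000 UMIs were classed by raw VIM UMIs (10 or more, or 0) and summed per sample and class. The sums were fitted with edgeR 4.0.16 in R 4.3.3 (glmQLFit and glmQLFTest, TMM, filterByExpr), with VIM removed, a term for the sample and a class effect per group. The SCC25 PBS and cetuximab sums shared 1 fit with 2 residual degrees of freedom. A second fit that also held SCC6 PBS had 3. Tests were two-sided, with Benjamini-Hochberg adjustment over all genes tested (FDR, threshold 0.05). Log2 fold changes are VIM-high over VIM-lacking, with SE. CPM are UMIs per 1000000 of the class sum. Class sums held 7319566 to 38089882 UMIs in SCC25 PBS. Counting error adds to the spread of the class difference between samples for genes with few UMIs in a sum. COL1A2, for example, had 4 UMIs in the VIM-lacking cells of replicate 1. A count of 0 VIM UMIs in 1 cell still allows the levels given above. Each sample entered with both classes, so the classes are paired by library. No doublet caller was run.

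Alternatives were DESeq2 1.42.0, its size factors, no low-count filter, no sample term, other fits, depth-matched or thinned cells, other VIM and depth thresholds, and leaving out deep cells, cells with many mitochondrial UMIs or each sample. The script was tested on simulated data. The members and gene lists were chosen with earlier results of these data known. Genes named outside the rule, where a count was small, were chosen after their values were seen. The rule for named genes took the 12 largest differences on each side among genes of 50 CPM or more, up to 4 called members of 10 CPM or more per list, 8 genes always named, and the 5 smallest p of each difference between groups. It left out VIM, XIST, Y-linked, ribosomal and mitochondrial genes and clone names. Fractions of cells carry Clopper-Pearson intervals at 95%. One gene that the rule names is not reported here.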

Additional observations from a re-analysis of the deposited data

Results flagged for a closer look

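Each of the following results was picked out because a test of the difference between 2 groups' class effects passed (edgeR FDR under 0.05). Values are the difference of log2 fold changes (VIM-high over VIM-lacking), followed by the value in depth-matched cells. Their causes were not tested.

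Between SCC25 cetuximab and SCC25 PBS, the class difference was larger under cetuximab for HIST1H1A (1.42, edgeR FDR 0.00299, depth-matched 1.22), CCNB2 (1.16, 0.00299, depth-matched 0.79), NUSAP1 (0.97, 0.00909, depth-matched 0.83), PTTG1 (0.88, 0.00909, depth-matched 0.63) and TUBA1B (0.61, 0.0142, depth-matched 0.44). It was smaller for EMP3 (-0.85, 0.0110, depth-matched -0.78) and FN1 (-0.92, 0.0312, depth-matched -0.38), which were higher in VIM-high cells under both treatments. For CLDN1 (0.98, 0.00299, depth-matched 0.80) and ALDH3A1 (1.01, 0.0450, depth-matched 0.89), which were lower in VIM-high cells, it moved towards 0. None of these 9 passed in depth-matched cells, where the lowest FDR among them was 0.153 (EMP3), and where their directions were the same.

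Between SCC6 PBS and SCC25 PBS, the class difference moved upwards for MMP1 (2.15, edgeR FDR 4.86e-06, depth-matched 1.60), LCN2 (2.05, 4.86e-06, depth-matched 2.09), SLPI (1.41, 2.06e-05, depth-matched 1.45), CLDN1 (1.31, 6.00e-05, depth-matched 1.17) and KRT17 (1.19, 6.26e-05, depth-matched 1.65). All 5 passed in depth-matched cells as well, with an FDR of at most 0.0192 (CLDN1).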

How the results depend on the processing

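For SCC25 PBS, 3669 genes became 1871 with DESeq2, 969 in depth-matched cells, 2322 with classes by thinned VIM, 2288 at a minimum of 25000 UMIs and 0 with no replicate block (1015 at an unadjusted p under 0.05). Leaving out a sample gave 1080 (without PBS replicate 2) to 4323. For SCC25 cetuximab, 4014 became 2407 with DESeq2, 884 in depth-matched cells and 0 with no replicate block (1338 unadjusted), and 2070 (without cetuximab replicate 2) to 4489 with a sample left out. The 76 genes that differed between treatments became 297 without the low-count filter, 152 in thinned cells, 25 with classes by thinned VIM, 135 without the 5% of cells with most UMIs, 1 in depth-matched cells (799 unadjusted), 0 with no replicate block (128 unadjusted) and 128 to 256 with a sample left out. With a replicate block across treatments they were 813. Same-numbered samples deviated together (correlation 0.400 over 7138 genes, 2 pairs), but the labels give only a number. For SCC6 PBS, 1037 became 428 with DESeq2, 671 with its size factors, 2222 without the filter, 521 in depth-matched and 590 in thinned cells, 502 at 20 or more VIM UMIs and 0 with no replicate block (663 unadjusted). Leaving out a sample gave 341 (without SCC6 replicate 2) to 1694 (without cetuximab replicate 2; 1690 without cetuximab replicate 1). For the difference of the lines, 1792 became 732 with DESeq2, 3007 without the filter, 364 in depth-matched cells, 1112 at 20 or more VIM UMIs, 1174 at a minimum of 25000 UMIs and 0 with no replicate block (617 unadjusted). Leaving out a sample gave 316 (without PBS replicate 2) to 2424, and 936 without SCC6 replicate 2. DESeq2 size factors moved the share of these calls that were higher from 25.9% to 47.1%, and the median of all genes from -0.12 to -0.01. TFAP2A turned to -0.11 in thinned cells, -0.0033 without the deepest 5% and -0.073 without PBS replicate 1 (0.0999 without PBS replicate 2). SNAI2 turned to -0.093 without PBS replicate 1 (0.51 without PBS replicate 2). Thinning put the shares of VIM-lacking cells at 20.7% and 45.5%, and a minimum of 25000 UMIs at 7.83% and 25.5%. Of 31 list medians, all kept their sign with DESeq2 size factors and 25 of 30 in depth-matched cells. A group left with 1 sample was assumed to vary like the others. The causes were not tested.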
